A study of Mus musculus with 20 samples.

Results

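Adgre1, Adgre4 and Adgre5, the adhesion receptors of the Adgre family that the gene table lists, and Aif1, a calcium-binding protein of the macrophage cytoskeleton, were followed across all groups of mouse bone marrow-derived macrophages (BMDM). These 4 genes, of 14456 in the table, were taken by their symbols in GENCODE M21. They are macrophage identity markers chosen by their normalized counts in the exosome libraries. The choice counted 2 of them as lower with exosomes, without naming the contrast. Their values in those libraries are therefore given as a description with no test. The stated basis of that choice does not include the 8 libraries of the glucose experiment, and there each gene was tested. Earlier results of these data were known when the genes were chosen. How far that knowledge shaped the choice was not tested, so the glucose p-values are not those of genes picked blind to the data.

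Adhesion receptors of this family carry a long extracellular region with EGF-like repeats joined to a membrane-spanning part that can signal through G proteins. Adgre1 encodes F4/80, the surface protein most used to identify mouse macrophages. Adgre4 encodes EMR4 (also called FIRE), found on monocytes, tissue macrophages and some dendritic cells. Adgre5 encodes CD97, which is found on most leukocytes, binds CD55 on neighbouring cells, and can couple to G alpha 12/13 and RhoA. Aif1 encodes IBA1, which bundles actin in membrane ruffles and phagocytic cups and is widely used to stain macrophages and microglia.

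BMDM came from the marrow of male C57BL/6J mice of 8 to 12 weeks, differentiated with M-CSF, and no group carried a genetic change. In the glucose experiment BMDM spent 24 h either in high glucose (25 mM) or in 5.5 mM glucose with 19.5 mM mannitol, a sugar alcohol that evens out the osmolarity (normal glucose). In the exosome experiment naive BMDM received PBS, or 2000000000 particles per ml of exosomes released by BMDM in normal (BMDM-NG-exo) or high glucose (BMDM-HG-exo), for 24 h, each library from its own exosome preparation. The PBS libraries are titled as unstimulated, and the medium glucose of the recipient cells is not given in the sources used here. There were 4 libraries a group and 20 in all, of 34016445 to 56310712 reads, and the dates in the exosome labels form 4 sets of 1 library per group. A number given to a library below is the one in its label, or, for exosome libraries, one shared by the libraries of a date. Nothing in the labels ties the glucose libraries to separate mice, so their p-values measure the spread between these cultures, which may be technical.

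On GRCm38, Adgre1 (ENSMUSG00000004730) spans chr17:57358691-57483527 on the plus strand and Adgre4 (ENSMUSG00000032915) spans chr17:55749984-55853662 on the same strand. Aif1 (ENSMUSG00000024397) lies on the minus strand at chr17:35170991-35176068, and Adgre5 (ENSMUSG00000002885) on the minus strand at chr8:83723251-83741326. All are protein coding, with merged exons of 3238, 3491, 1532 and 3757 bases for Adgre1, Adgre4, Aif1 and Adgre5. Adgre5 overlaps Ddx39 on the opposite strand, and Adgre4 overlaps 2 pseudogenes on the opposite strand that the table does not list. Reads were counted by strand, so each gene of an overlapping pair was counted on its own strand. How many reads were assigned to the wrong strand was not measured.

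Of the members, RefSeq promoters were available only for Adgre4 and Aif1. They are shown here as the 250 bases before the start site (GRCm38.p6, 5′ to 3′ on the gene's own strand). The Adgre4 window is chr17:55749734-55749983 on the plus strand and the Aif1 window is chr17:35176053-35176302 on the minus strand. Both strands were searched for GAGGAA, the core bound by PU.1 and other ETS factors, and its matches are in capitals.
Adgre4: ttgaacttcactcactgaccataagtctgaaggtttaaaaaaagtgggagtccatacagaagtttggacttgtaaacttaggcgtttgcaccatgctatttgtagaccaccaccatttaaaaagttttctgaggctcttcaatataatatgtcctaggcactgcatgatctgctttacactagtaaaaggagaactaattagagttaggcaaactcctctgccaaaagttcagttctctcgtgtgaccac
Aif1: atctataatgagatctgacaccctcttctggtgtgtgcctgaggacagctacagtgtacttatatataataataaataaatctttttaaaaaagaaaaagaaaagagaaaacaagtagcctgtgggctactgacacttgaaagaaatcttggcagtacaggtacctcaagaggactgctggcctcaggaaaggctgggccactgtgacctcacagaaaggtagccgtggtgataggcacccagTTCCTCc
The Aif1 window held 1 match, read on the opposite strand with its first base 7 bases before the RefSeq start site. It falls in the last 16 bases of the window, which GENCODE M21 already places inside the gene. The Adgre4 window held none, and 23.4% of 32544 promoter windows of this length held at least 1. The interferon response motif (a pair of GAAA runs with any 2 bases between them) occurred in the Aif1 window, starting 157 bases before the start site and not overlapping the other match, and in 2.98% of all windows. Neither window held the AP-1 motif TGANTCA (6.73% of windows) or the E-box CACGTG (6.03% of windows). These are matches of letters, and binding was not measured.

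Levels are given as normalized counts, which are read counts divided by 1 size factor per library, and a level per kilobase divides that value by the length of the merged exons. Per kilobase, Adgre1 was the highest of the 4 genes in every group, with group means of 10202 to 12018. Adgre5 followed at 1742 to 2094 and Aif1 at 532 to 915. Adgre4 was the lowest at 40.4 to 125, resting on 116 to 593 reads per library against 31095 to 44852 for Adgre1. The receptors differed far more in level from one another than any of them differed between groups. All 4 genes passed the minimum mean of 10 normalized counts in both experiments.

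**Figure D1:**
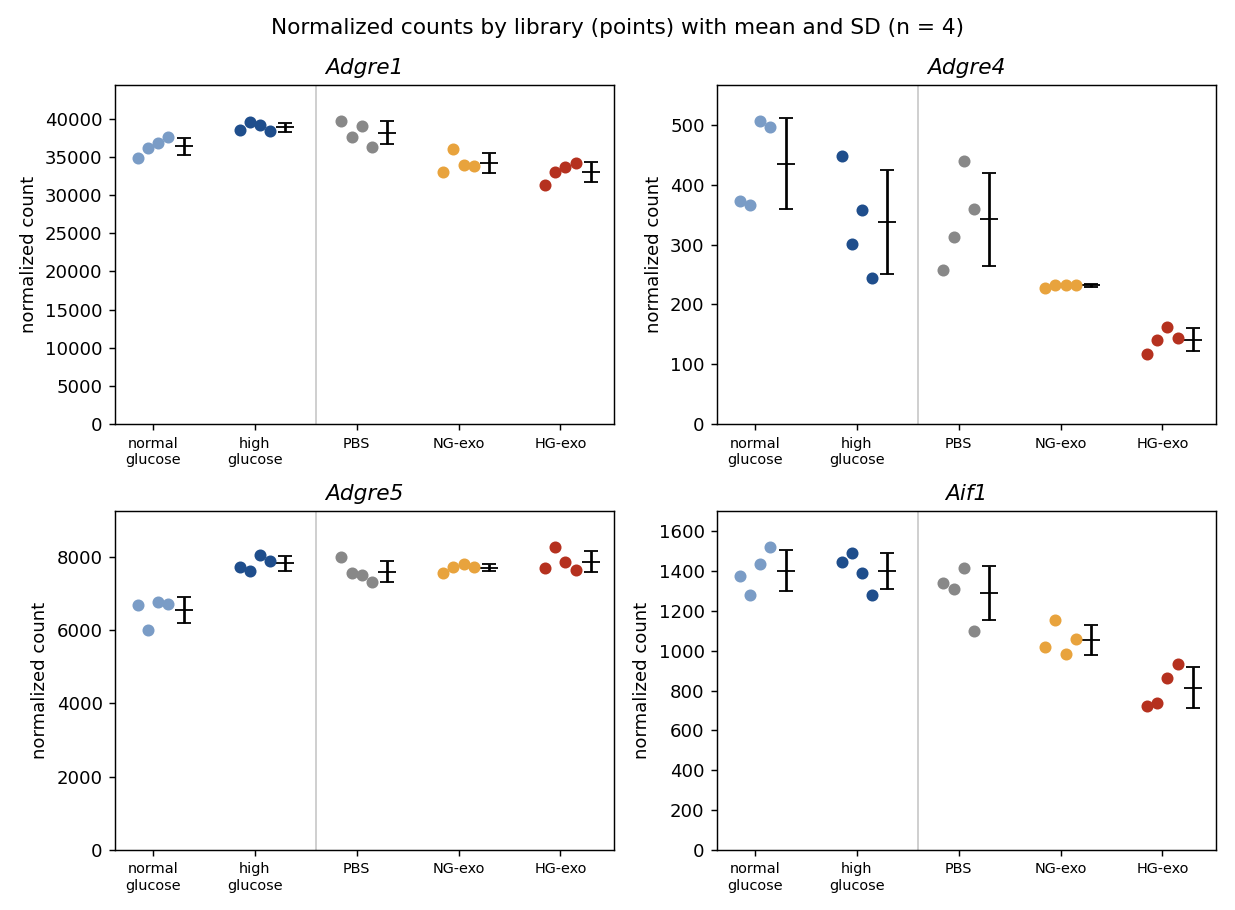
Normalized counts of each gene in every library (points) in the 5 groups, with the mean and SD of 4 libraries beside them, on a linear axis from 0. The vertical line parts the glucose from the exosome experiment. Adgre4 falls into 3 bands in the exosome groups, and Adgre5 is lowest in normal glucose. Over all libraries Adgre1 has the narrowest range in proportion, but within each exosome group Adgre5 varies less than Adgre1.

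Adgre5 was higher in high than in normal glucose. Its normalized counts were 6684, 6016, 6768 and 6717 in normal glucose (libraries 1, 3, 5 and 6). In high glucose (libraries 1, 2, 4 and 6) they were 7726, 7613, 8054 and 7902. Every high glucose library lay above every normal glucose library. The share of all genes whose groups separate in this way was not counted, here or for the groups described below. The means were 6546 ± 355 and 7824 ± 194 (SD, n = 4), a log2 fold change of 0.26 with an SE of 0.041, or 19.6% on the log2(count + 1) scale. The rise passed the test across all genes (limma, adjusted p = 1.423e-05), and normal glucose library 3, the lowest, did not carry it: without that library the change was 0.22 with an adjusted p of 6.356e-05.

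Adgre1 rose by a smaller amount. Its normalized counts were 34893, 36239, 36859 and 37574 in normal glucose, and in high glucose they were 38516, 39559, 39216 and 38362. Again the groups did not overlap, although the gap between the nearest libraries was small. The log2 fold change was 0.10 with an SE of 0.032, and it passed the test (limma, adjusted p = 0.03636). This call depended on the settings: quantile normalization brought the change to 0.03 (adjusted p = 0.6041), and 6 of the 8 fits that left out 1 library lost the call, with adjusted p-values of 0.05438 to 0.1182.

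Adgre4 had values of 372, 366, 506 and 497 in normal glucose, against 448, 301, 358 and 245 in high glucose. The groups overlapped, and the 4 libraries of each spread widely around means of 435 ± 76.6 and 338 ± 86.6 (SD, n = 4). The log2 fold change of −0.38 had a 95% interval of −0.67 to −0.10 and missed the threshold after adjustment (limma, adjusted p = 0.06372). It passed without normal glucose library 1 (adjusted p = 0.0289), normal glucose library 3 (0.0248) or high glucose library 1 (0.008765). The other 5 fits that left out 1 library missed the threshold, with adjusted p-values of 0.07075 to 0.3161. All 11 other settings missed it as well, with adjusted p-values of 0.05369 to 0.3223.

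Aif1 had values of 1375, 1278, 1435 and 1521 in normal glucose, while high glucose gave 1446, 1489, 1388 and 1280. The 2 groups covered nearly the same range. The log2 fold change was −0.001 with a 95% interval of −0.13 to 0.13, so a change of more than about 0.13 in either direction lay outside the interval (limma, adjusted p = 0.9968).

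Thus 2 of the 4 genes rose and none fell by the test, where 13.3% of the 14425 genes tested were called (1116 higher and 798 lower, or 789 and 873 with quantile normalization). The median log2 fold change of all genes was −0.003. The 3 receptors did not share a direction in this experiment, since Adgre4 had a negative and Adgre1 and Adgre5 a positive log2 fold change.

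**Figure D2:**
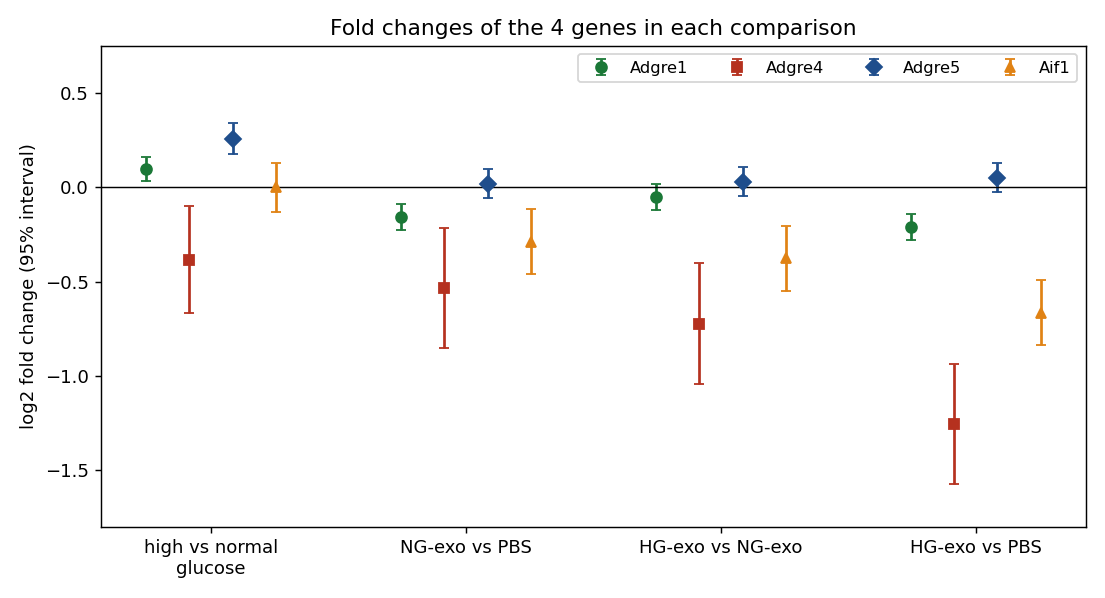
Log2 fold changes of the 4 genes with 95% intervals from limma in the glucose comparison and in the 3 comparisons between exosome groups, which share libraries. In the glucose comparison the Adgre5 and Adgre1 intervals lie above 0. That of Adgre4 lies below 0, although its adjusted p missed the threshold, and that of Aif1 spans 0. In the exosome comparisons, whose libraries chose the genes, the intervals show the spread and are no test. There Adgre4 runs from −1.255 to −0.53, Aif1 from −0.67 to −0.29 and Adgre5 from 0.02 to 0.05.

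In the exosome libraries Adgre4 differed most between groups. Its normalized counts were 257, 312, 440 and 359 with PBS (libraries 1 to 4), 228, 233, 233 and 233 with BMDM-NG-exo, and 117, 141, 163 and 144 with BMDM-HG-exo. The 3 groups did not overlap: every BMDM-HG-exo library lay below every BMDM-NG-exo library, and these below every PBS library. Group means were 342 ± 77.3, 232 ± 2.57 and 141 ± 19.0 (SD, n = 4). Against PBS, the log2 fold change was −0.53 (SE 0.157) with BMDM-NG-exo and −1.25 (SE 0.157) with BMDM-HG-exo, and BMDM-HG-exo lay −0.72 (SE 0.157) from BMDM-NG-exo. The BMDM-HG-exo level was thus 0.419 times that of PBS.

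Aif1 was ordered in the same way, with smaller steps. It had 1341, 1308, 1418 and 1098 normalized counts with PBS, 1019, 1157, 982 and 1057 with BMDM-NG-exo, and 722, 738, 865 and 935 with BMDM-HG-exo. The BMDM-HG-exo libraries lay below all others, while PBS library 4 fell within the range of BMDM-NG-exo. Group means were 1291 ± 137, 1054 ± 75.3 and 815 ± 102 (SD, n = 4). Against PBS, the log2 fold change was −0.29 (SE 0.085) with BMDM-NG-exo and −0.67 (SE 0.085) with BMDM-HG-exo, and between both kinds of exosome it was −0.38 (SE 0.085).

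Adgre1 was lower with both kinds of exosome by a similar amount. Its normalized counts were 39687, 37670, 39065 and 36361 with PBS, 33040, 36039, 34016 and 33838 with BMDM-NG-exo, and 31292, 33004, 33683 and 34159 with BMDM-HG-exo. All exosome libraries lay below all PBS libraries, and both exosome groups overlapped each other. The log2 fold change against PBS was −0.16 (SE 0.034) with BMDM-NG-exo and −0.21 (SE 0.034) with BMDM-HG-exo. Between both kinds of exosome it was −0.05 (SE 0.034).

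Adgre5, which rose more than Adgre1 with glucose, had similar values in the exosome groups. It had 7989, 7571, 7519 and 7319 normalized counts with PBS, 7565, 7730, 7795 and 7723 with BMDM-NG-exo, and 7707, 8272, 7854 and 7640 with BMDM-HG-exo. The 3 groups overlapped. Its log2 fold change against PBS was 0.02 (SE 0.038) with BMDM-NG-exo and 0.05 (SE 0.038) with BMDM-HG-exo. Whether the response of Adgre5 differed between the experiments was not tested.

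**Figure D3:**
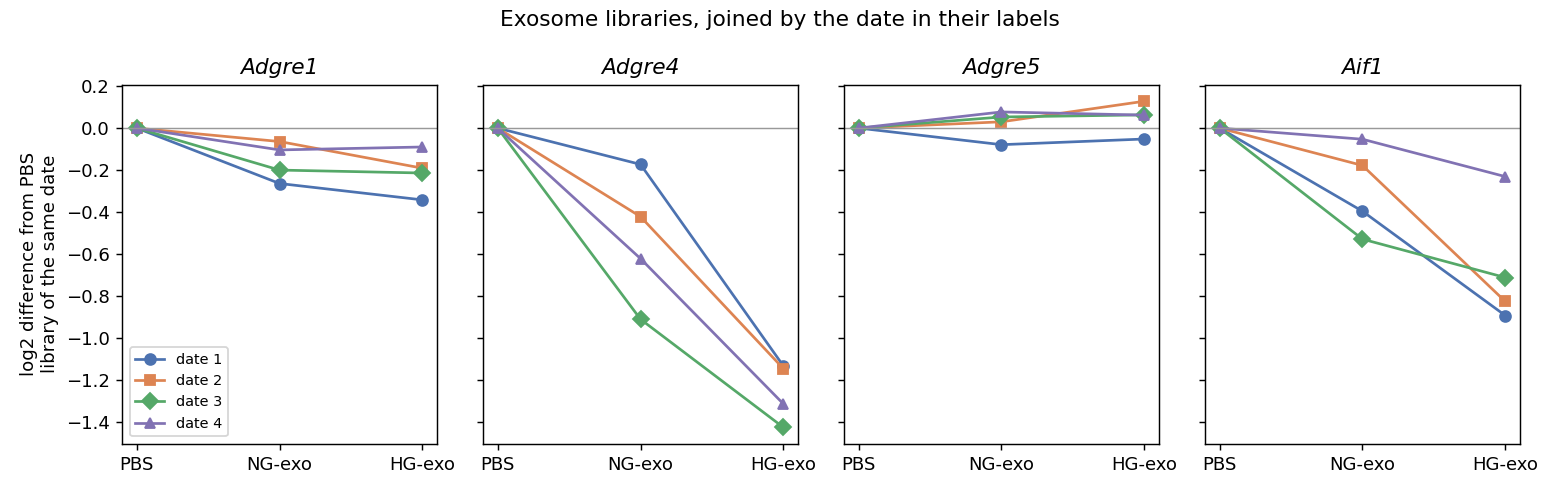
Log2 normalized count of each gene with BMDM-NG-exo and BMDM-HG-exo minus that of the PBS library with the same label date, 1 line for each of the 4 dates. Both exosome points of a line share the same PBS library. The Adgre4 and Aif1 lines go down at both steps on every date, reaching −1.43 to −1.13 for Adgre4 with BMDM-HG-exo, whereas the Adgre5 lines stay within 0.13 of 0.

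Within each date the same order was seen for Adgre4 and Aif1, with PBS highest and BMDM-HG-exo lowest on 4 of 4 dates. The log2 difference of Adgre4 from the PBS library of its date was −1.43 to −1.13 with BMDM-HG-exo, a narrow range, but −0.91 to −0.17 with BMDM-NG-exo. That of Aif1 was −0.89 to −0.23 with BMDM-HG-exo, smallest on date 4, where the PBS library was itself the lowest of its group. Adgre1 was below PBS on 4 of 4 dates with each kind of exosome and below BMDM-NG-exo with BMDM-HG-exo on 3 of 4. Adgre5 was above PBS on 3 dates and below it on 1 with each.

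Against the PBS and BMDM-NG-exo libraries combined, the contrast the study used, the log2 fold change with BMDM-HG-exo was −0.99 for Adgre4 (SE 0.161), −0.52 for Aif1 (SE 0.090), −0.13 for Adgre1 (SE 0.041) and 0.04 for Adgre5 (SE 0.034). The 4 genes are not called up or down in these libraries, which chose them. For the other genes named below, a call in an exosome comparison needs a limma adjusted p under 0.05 and a log2 change of 0.15 or more in either direction. By these thresholds 3.0% of all genes were called with BMDM-NG-exo against PBS and 4.84% with BMDM-HG-exo against PBS. Against the combined controls 0.201% were called (10 higher and 19 lower, or 9 and 10 with quantile normalization). Between the 2 kinds of exosome 0.0139% were called (2 genes by limma, 22 with the label date as a block, 1 by edgeR and 25 by DESeq2, with 942 at an unadjusted p under 0.05).

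Order of the 5 groups differed from gene to gene. Adgre4 was highest in normal glucose, then in PBS and high glucose, which overlapped, and lowest in the exosome groups, with BMDM-NG-exo clear of both its neighbours. Aif1 was highest in both glucose groups and PBS, which overlapped, then came BMDM-NG-exo, which overlapped PBS, and BMDM-HG-exo below it with no overlap. For Adgre1 the order from high glucose through PBS, normal glucose and BMDM-NG-exo to BMDM-HG-exo held no pair of neighbours that did not overlap. Adgre5 was lowest in normal glucose, clear of PBS, and the other groups overlapped each other. No test was run between a glucose group and an exosome group, which belong to different experiments.

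Relative to Adgre1 of the same library, Adgre4 was 1.19% in normal glucose, 0.869% in high glucose, 0.898% with PBS, 0.678% with BMDM-NG-exo and 0.426% with BMDM-HG-exo (means of the ratio of normalized counts, n = 4). The BMDM-HG-exo libraries, at 0.373% to 0.484%, lay below all 16 others. The ratio of Aif1 to Adgre1 likewise was lowest with BMDM-HG-exo, 2.46% against 3.38% with PBS, whereas that of Adgre5 was highest there, 23.8% against 19.9%. In bulk RNA, fewer cells with a transcript and less of it per cell cannot be told apart.

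Across the 12 exosome libraries Adgre1, Adgre4 and Aif1 went together, as described by Pearson correlations of log2 values of 0.80 for Adgre1 with Adgre4, 0.92 for Adgre1 with Aif1 and 0.89 for Adgre4 with Aif1. The 3 groups and 4 dates are shared by these points, and these libraries chose the genes, which by itself favours such agreement. Across the 8 glucose libraries the correlations of the same pairs were −0.30, 0.31 and 0.57, and that of Adgre1 with Adgre5 was 0.80.

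Genes whose pattern was most like each of the 4 were ranked by the smaller of their correlations over the 12 exosome and the 8 glucose libraries, among 11718 genes. For Adgre1 they were Serinc3 (0.93 and 0.94), Ms4a6c (0.91 and 0.93) and C3ar1 (0.90 and 0.90), the last encoding the receptor for the complement fragment C3a. For Adgre4 they were Fcgrt (0.87 and 0.93), which encodes the neonatal Fc receptor, Pot1b (0.85 and 0.86) and Ly86 (0.84 and 0.88), which encodes MD-1, a partner of the Toll-like receptor homologue RP105. For Aif1 they were Actb (0.80 and 0.90), encoding beta-actin, Pilrb1 (0.85 and 0.77) and Clec4a3 (0.83 and 0.77). For Adgre5 they were Bnip2 (0.75 and 0.88), Fam117a (0.74 and 0.89) and 1110008P14Rik (0.73 and 0.91). Groups and dates are shared by the libraries behind these values as well.

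Of 15 other macrophage genes all were listed, and in high glucose 6 were called higher and 3 lower, with a median log2 fold change of 0.10. Csf1r, the receptor for M-CSF, rose by 0.35 (limma, adjusted p = 5.633e-10), against 0.26 for Adgre5. Lyz2, a lysozyme, rose by 0.42 (adjusted p = 7.078e-10) and Cd14, the lipopolysaccharide co-receptor, by 0.39 (adjusted p = 1.193e-08). Mertk, a receptor for engulfment of dying cells, fell by 0.40 (adjusted p = 7.851e-09). With BMDM-NG-exo against PBS 0 were called higher and 4 lower, with a median of −0.05 against 0.005 over all genes. These were Fcgr1, a high-affinity Fc receptor (−0.41, adjusted p = 5.099e-07), Csf1r (−0.22, adjusted p = 2.504e-05), Cd14 (−0.31, adjusted p = 3.182e-05) and Itgam, the integrin chain CD11b (−0.18, adjusted p = 0.01467). The remaining 11, among them Mpeg1 (0.02, adjusted p = 0.8457), were not called. Against the combined controls 2 of the 15, Itgam (−0.29, adjusted p = 0.01255) and Fcgr1 (−0.39, adjusted p = 0.0392), were called lower with BMDM-HG-exo, and Fcgr1 was not with the date block (adjusted p = 0.07805).

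Of 9 resident macrophage genes 4 were listed. Siglec1, which encodes sialoadhesin, rose with glucose (0.23, adjusted p = 0.003072) and was lower with BMDM-NG-exo than with PBS (−0.38, adjusted p = 4.42e-07). Folr2, a folate receptor, had the same directions by smaller amounts (0.17, adjusted p = 0.04842, and −0.23, adjusted p = 0.04717). Mrc1, the mannose receptor, fell with glucose (−0.47, adjusted p = 3.844e-09), and its log2 fold change of 0.15 with BMDM-NG-exo passed only with the date block (adjusted p = 0.005216, against 0.1208 without it).

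Of 12 monocyte genes 10 were listed, and Ly6c2 and Plac8 were not. In high glucose 5 were called higher and 1 lower, with a median of 0.10. Cx3cr1, the fractalkine receptor, rose by 0.73 (adjusted p = 3.97e-13), Spn by 0.39 (adjusted p = 1.499e-06), Itgal by 0.35 (adjusted p = 1.97e-06) and F13a1 by 0.38 (adjusted p = 2.182e-05). With BMDM-NG-exo 0 were called higher and 4 lower than with PBS, with a median of −0.27. Cx3cr1 fell by 0.60 (adjusted p = 1.205e-09), Itgal by 0.26 (adjusted p = 0.0007745), Ccr2, the receptor for the chemokine CCL2, by 0.28 (adjusted p = 0.001516) and Spn by 0.27 (adjusted p = 0.01028). Cx3cr1 thus went with Adgre1 in both comparisons, and Adgre4, which missed the threshold in high glucose, had the opposite sign there. Against the combined controls only F13a1 of the 10 was called lower with BMDM-HG-exo (−0.33, adjusted p = 0.00761).

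Summed over the monocyte list, normalized counts ran from 15210 to 15546 in normal glucose, 19617 to 21482 in high glucose, 21845 to 22466 with PBS, 16854 to 18157 with BMDM-NG-exo and 15797 to 18310 with BMDM-HG-exo. The sum over the macrophage list ran from 836231 to 925277, 1035033 to 1109711, 1033451 to 1082973, 960750 to 1027465 and 977061 to 1014895 in the same order. Both sums were lower with either kind of exosome than with PBS, as Adgre1, Adgre4 and Aif1 were, and lower in normal than in high glucose, as Adgre1 and Adgre5 were. Lyz2 made up most of the macrophage sum, with means of 480718 in normal and 642842 in high glucose. Its means were 597380 with PBS, 559664 with BMDM-NG-exo and 561049 with BMDM-HG-exo. It was not called with either kind of exosome against PBS (limma, adjusted p = 0.07268 and 0.06785). The macrophage sum thus mainly follows Lyz2. The part of these sums in the values of the 4 genes was not tested.

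**Figure D4:**
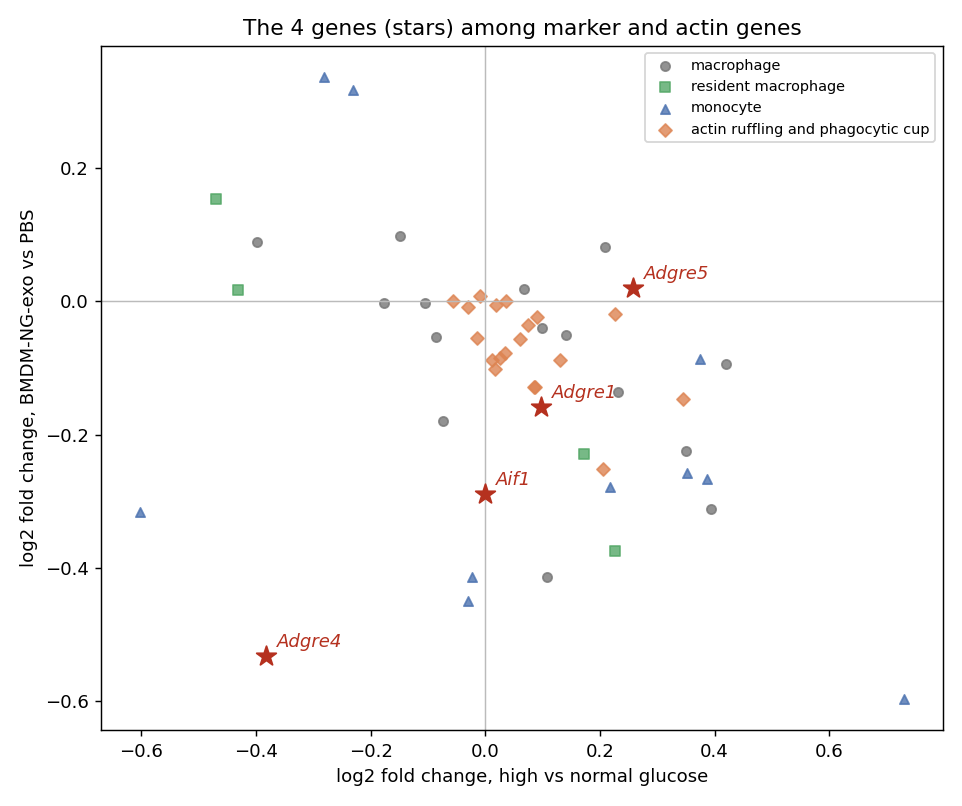
Log2 fold change in high against normal glucose (horizontal) and with BMDM-NG-exo against PBS (vertical) for the 4 genes (stars) and the listed macrophage, resident macrophage, monocyte and actin genes. Adgre4 lies below 0 on both axes, Aif1 below 0 on the vertical and at −0.001 on the horizontal axis, and Adgre5 to the right near the horizontal line, and Cx3cr1 is the triangle farthest to the lower right.

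Genes that define other blood and stromal cells were at low levels or not listed. The neutrophil list had 5 of 10 genes, without Ly6g and Elane, and summed to 165 to 378 normalized counts over the libraries. The dendritic list had only Itgax (68.0 to 157), the T cell list only Cd4 (35.4 to 117), the B cell list only Cd79b (17.4 to 68.0) and the eosinophil list only Siglecf (9.92 to 39.4). Of the 5 fibroblast genes 3 were listed (106.7 to 349), and none of the mast cell or erythroid genes were. Of the 12 genes in these lists 0 were called in any of the 5 comparisons by limma, edgeR or DESeq2, and at most 1 in a comparison had an unadjusted p under 0.05.

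Among 27 other adhesion receptors 7 were listed, and their summed normalized count was 3041 to 3530 in every library. By limma, edgeR and DESeq2 0 of them were called in any comparison, with at most 1 at an unadjusted p under 0.05, and with limma medians of −0.07 in high glucose and 0.04 with BMDM-NG-exo against PBS. The most abundant was Adgrl2, a latrophilin, whose log2 fold changes were 0.04 (adjusted p = 0.7094) and 0.01 (adjusted p = 0.9766).

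For the ligands and signalling partners of CD97, 12 of 14 genes were listed, and Cd55 and Thy1 were not. In high glucose, where Adgre5 rose, Itgav, an integrin alpha chain, rose as well (0.20, adjusted p = 0.0002102), whereas Itgb3 (−0.68, adjusted p = 5.358e-05) and Arhgef12, an exchange factor that activates RhoA (−0.36, adjusted p = 3.976e-06), fell. Gna12 (0.04, adjusted p = 0.5627), Gna13 (0.05, adjusted p = 0.4837) and Rhoa (0.09, adjusted p = 0.06922) were not called. The list's median was 0.03. In the exosome comparisons 0 of the 12 were called by limma, edgeR or DESeq2, with 2 to 5 at an unadjusted p under 0.05.

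For the actin genes of ruffles and phagocytic cups, where IBA1 acts, 19 of 20 were listed, and the paralogue Aif1l was not. With BMDM-NG-exo against PBS only Coro1a, an actin-binding coronin, was called, and it was lower (−0.25, adjusted p = 1.103e-05). Its level had risen in high glucose (0.21, adjusted p = 8.025e-05), as had Rac2, a haematopoietic GTPase (0.35, adjusted p = 8.269e-08), and Arpc1b, a subunit of the Arp2/3 complex (0.23, adjusted p = 3.826e-05). With BMDM-HG-exo against PBS, 2 were called lower and 0 higher. These were Coro1a (−0.235, limma, adjusted p = 1.558e-05) and Tmsb4x (−0.176, adjusted p = 6.981e-05). Actb ranked first for Aif1 by the smaller of the 2 correlations. It was 0.09 lower with BMDM-NG-exo (adjusted p = 0.05346) and 0.12 lower with BMDM-HG-exo (adjusted p = 0.002161) than with PBS, which is under the fold limit of 0.15.

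Genes annotated within 25 kb of the 4 were also looked up. Near Aif1, Tnf, which encodes the cytokine TNF, rose with glucose (0.74, adjusted p = 8.638e-06), where Aif1 was not called, and was lower with BMDM-NG-exo (−0.47, adjusted p = 0.02029). Prrc2a, also near Aif1, rose with glucose by 0.11 (adjusted p = 0.03518), while Bag6, Lst1, Gm23442 and Gm17705 were not called in any comparison. Ddx39, the helicase gene that overlaps Adgre5 on the opposite strand, rose with glucose by 0.26 (adjusted p = 0.01951), the same amount as Adgre5, from a level of 677 to one of 811 normalized counts. Whether reads of Adgre5 entered the Ddx39 count was not tested. Beside Adgre4, Zfp119a was not called in any comparison, with −0.13 in high glucose (adjusted p = 0.5765) and −0.14 with BMDM-NG-exo against PBS (adjusted p = 0.7801). Near Adgre1 no gene was listed.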

How the data were processed

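RNA of 20 BMDM libraries was sequenced after rRNA depletion with a stranded total RNA kit. The authors trimmed reads with cutadapt, mapped them to GRCm38 with STAR and obtained gene counts from FeatureCounts with read 2 as the sense read. The deposited signal is the count divided by 1 size factor per library (DESeq2 median ratio). The annotation used for counting is not given in the sources used here, and GENCODE M21 named 14421 of 14456 genes. All 20 columns were used.

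Dividing each column by its smallest step gave whole reads (100% of values within 0.01), which served for totals, edgeR 4.0.16 and DESeq2 1.42.0. In 2 columns (PBS 4 and BMDM-HG-exo 1) that step was within 0.0076 of 1. No libraries were copies (chi-square per degree of freedom 5.19 to 41.9 over 30 replicate pairs).

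Log2(normalized count + 1) was fitted with limma 3.58.1 in R 4.3.3 (trend, two-sided, Benjamini-Hochberg), for genes with a mean of at least 10, in the 8 glucose libraries, in the 12 exosome libraries as 3 groups, and with BMDM-HG-exo against the other 8. Calls needed an adjusted p under 0.05 and, with exosomes, a log2 change of 0.15 or more in either direction. The fit was tested on simulated data. A test of the 4 genes in BMDM-NG-exo against PBS had been planned and is given as a description, because the choice of genes does not say which exosome contrast it used. Exosome label dates pair the libraries. Deviations of same-date libraries correlated by 0.01 on average (−0.02 to 0.06, 12 pairs), against −0.004 for other pairs. The members, lists and motifs were chosen with earlier results of these data known. Named were the 4 genes, the 3 most alike to each, up to 4 called genes per list and comparison (the smallest p), and genes within 25 kb, of which 1 is not reported here, while other genes (Mpeg1, Adgrl2, Gna12, Gna13, Rhoa, Actb with BMDM-HG-exo, and Itgam, Fcgr1 and F13a1 against combined controls) were picked after their values were seen.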

Additional observations from a re-analysis of the deposited data

Results flagged for a closer look

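Within groups of 4, the lowest or highest library stood apart from its neighbours, by Dixon's criterion, in 2 of the 20 combinations of gene and group, where chance gives about 1 in 20. Adgre4 with BMDM-NG-exo was 228 in library 1 and 233.0 to 233.2 in the other 3, a group whose CV of 1.11% is below the 6.24% that counting of its 218 to 286 reads would give. Adgre5 in normal glucose was 6016 in library 3 and 6684 to 6768 in the other 3.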

How the results depend on the processing

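The rise of Adgre5 with glucose passed the test in all 19 alternatives, with log2 fold changes of 0.22 to 0.28 when 1 library was left out and adjusted p-values of 7.29e-08 to 0.03797. That of Adgre1 lost its call with quantile normalization (0.028), without trend (0.097, adjusted p = 0.2121), with edgeR (0.094, adjusted p = 0.053) and with the replicate block on the numbers 1 and 6 (0.086, adjusted p = 0.4819), and ranged from 0.077 to 0.113 when 1 library was left out. Adgre4 ranged from −0.53 to −0.24 and Aif1 from −0.04 to 0.04 there. Over all genes, 1914 glucose calls became 654 without trend and 788 with the replicate block (721 shared), with 1370 to 2027 when 1 library was left out. The block rests on 2 shared numbers whose libraries correlated by 0.01, and it also ended the glucose calls of Ddx39, Prrc2a and Folr2. Fcer1g, Lgals3 and Maf of the macrophage list and Nr4a1 of the monocyte list lost theirs as well. Itga5, on the list of CD97 ligands and partners, gained a call (limma, adjusted p = 0.03859). For BMDM-NG-exo against PBS, 432 genes called became 95 without trend (292 to 453 without 1 library). The 29 genes called against the combined controls became 1 without trend, 19 with quantile normalization, 47 with a pseudocount of 5, 136 with DESeq2, 1 without BMDM-HG-exo library 1, 204 without BMDM-NG-exo library 3, and 7 to 97 without any other single library. BMDM-HG-exo against PBS gave 698 and 295 without trend. BMDM-HG-exo against BMDM-NG-exo gave 2, and 0 to 25 under alternatives. No member changed direction in BMDM-NG-exo against PBS or against the combined controls, and the causes were not tested. Adgre4, with the fewest reads, has the widest intervals.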
